A study of Mus musculus with 8 samples.

Results

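The family of miR-15, miR-16, miR-195 and miR-497 is a set of microRNAs that share 1 seed, the stretch of bases at the 5′ end of a mature miRNA that pairs with its target messages. The 5 members measured were mmu-miR-15a-5p, mmu-miR-15b-5p, mmu-miR-16-5p, mmu-miR-195a-5p and mmu-miR-497a-5p (mmu, the mouse prefix, is left out below), taken by name from the 1023 mouse miRNA names of the array, with all 10 of their probes (2 for each member). Total kidney RNA of CD-1 mice, an outbred stock, was hybridised in 1 colour (Cy3) to Agilent mouse miRNA arrays, with 0.1 µg of RNA and an RNA integrity number of 9 for every sample. The control group (4 arrays) came from mice given physiological serum. The tacrolimus group (4 arrays) came from mice given tacrolimus, a calcineurin inhibitor used against transplant rejection, at 1 mg/kg/d for 28 days. No age is given for the mice, and the labels leave unsaid whether each replicate is a mouse of its own. The p-values therefore describe the spread among these 8 samples, part of which may be technical. The groups also sat in different rows of the slide, with every control in 1 row and every treated sample in the other, and a row effect and a drug effect cannot be told apart.

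A miRNA guides a silencing complex to messages that pair with its seed, and the message is then translated less or degraded. The family is best known for holding back cell division, through messages such as those of cyclins and cyclin-dependent kinases, and for repressing the survival protein BCL2. In the kidney, division of tubule cells is part of repair after injury, and in blood the pair miR-15a and miR-16-1 was first described as lost in a leukaemia.

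The mature sequences are shown because members that share a seed differ only in the rest of the molecule. The array probes pair with that rest and also with part or all of the shared seed. They are printed 5′ to 3′ from RefSeq (GRCm38.p6), where 5 of 5 members matched by name, and capitals mark the seed (bases 2 to 8).
miR-15a-5p: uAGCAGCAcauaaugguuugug
miR-15b-5p: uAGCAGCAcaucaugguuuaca
miR-16-5p: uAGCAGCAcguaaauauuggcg
miR-195a-5p: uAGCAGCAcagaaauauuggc
miR-497a-5p: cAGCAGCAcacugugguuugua
miR-322-5p: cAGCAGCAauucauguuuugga

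Outside the seed the members fall into separate kinds of tail that do not follow their genes. miR-195a-5p matched miR-16-5p at 19 of 21 aligned positions, and the differences, counted from 1 at the 5′ end of miR-16-5p, were G10A and U11G. miR-195a-5p matched its cluster partner miR-497a-5p at only 12 of 21 positions. miR-497a-5p matched miR-15a-5p at 17 of 22 positions, and miR-15a-5p matched miR-15b-5p at 18 of 22. The sixth sequence is that of miR-322-5p, the 1 miRNA outside the 5 that carries the seed and has probes on the array.

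The genes form clusters. In GRCm38.p6, Mir195a (chr11:70235062-70235082, + strand) and Mir497 (chr11:70234730-70234751, + strand) start 332 bases apart, counted between the mature 5p sequences, and lie in no other annotated gene except that Mir497b overlaps Mir497. Mir15a (chr14:61632075-61632096, - strand) lies 139 bases from Mir16-1 (chr14:61631936-61631957, - strand), both within the long non-coding RNA gene Dleu2. Mir15b (chr3:69009775-69009796, + strand) lies 143 bases from Mir16-2 (chr3:69009918-69009939, + strand), both within Smc4, which encodes a condensin subunit. miR-16-5p is thus made from 2 genes with 1 mature sequence, which the array cannot separate. The array headers name an older mouse build, and no coordinate of that build is used.

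miR-195a-5p and miR-497a-5p read higher after tacrolimus by about the same amount at each member, but neither difference passed the test across all miRNAs. Values are log2 signals scaled within each array, where 0 is the 75th percentile of that array's probes, counting those detected on every array. A probe's level depends on its own sequence, so levels are compared between arrays and not between members. miR-195a-5p read -0.18, -0.42, -0.42 and -0.22 on control arrays 1 to 4. It read 0.067, 0.0063, -0.24 and -0.049 on tacrolimus arrays 1 to 4. Of the tacrolimus arrays 1, 2 and 4 lay above every control array, while tacrolimus 3 lay below control 1 and control 4, so the groups overlapped. The means were -0.31 ± 0.13 (SD, n = 4) and -0.053 ± 0.13 (SD, n = 4), a difference of 0.26 (SE 0.092, 95% interval 0.050 to 0.46), or 1.20-fold. In limma the unadjusted p was 0.0203 and the Benjamini-Hochberg adjusted p was 0.24.

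miR-497a-5p, which comes from the same cluster but has a different tail, gave the same picture. It read -0.55, -0.71, -0.74 and -0.54 on control arrays 1 to 4 and -0.25, -0.29, -0.54 and -0.41 on tacrolimus arrays 1 to 4. Again tacrolimus 3 was the lowest tacrolimus array and lay just below control 4, and the other 3 lay above all controls. The means were -0.64 ± 0.11 (SD, n = 4) and -0.37 ± 0.13 (SD, n = 4), a difference of 0.26 (SE 0.088, 95% interval 0.065 to 0.46), or 1.20-fold. The limma p was 0.0147 and the adjusted p 0.19. Leaving out tacrolimus 4 also shifted the median of all miRNAs. The difference of miR-195a-5p was then 0.14 and that of miR-497a-5p 0.16, while the median over the 194 tested went from 0.039 to -0.064. Relative to that median the pair stood at 0.21 and 0.23 without tacrolimus 4, against 0.22 and 0.22 with it.

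**Figure D1:**
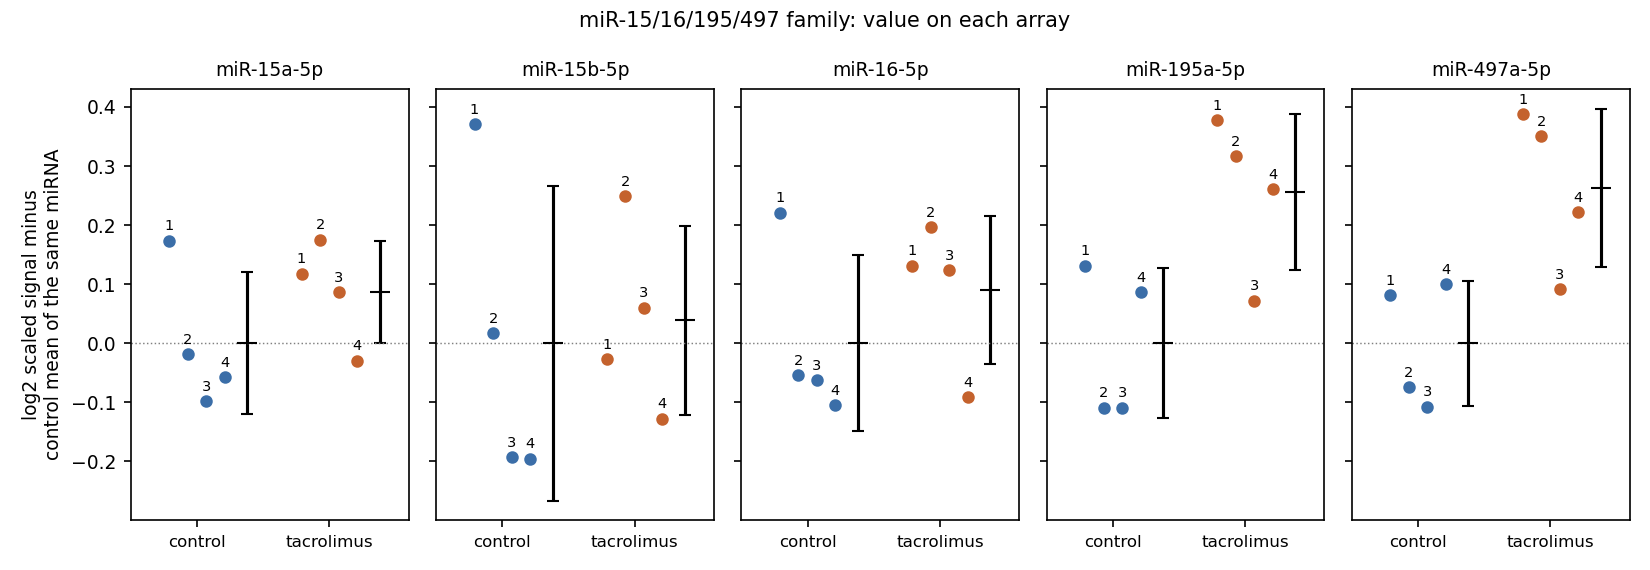
Scaled log2 signal of each member on each array, minus the control mean of the same member, with controls in blue and tacrolimus in orange. Points are arrays, numbered by replicate, and bars are the mean ± SD (n = 4); miR-195a-5p and miR-497a-5p have 3 tacrolimus arrays above every control, while control 1 is among the highest arrays of miR-15a-5p, miR-15b-5p and miR-16-5p.

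The differences of miR-15a-5p, miR-15b-5p and miR-16-5p were each smaller than the SD of the control arrays. miR-15a-5p read 0.69, 0.50, 0.42 and 0.46 on the controls and 0.64, 0.70, 0.61 and 0.49 on the tacrolimus arrays. The groups overlapped across nearly their whole range, with control 1 next to the highest array, tacrolimus 2. The means of 0.52 ± 0.12 and 0.61 ± 0.086 (SD, n = 4 each) differed by 0.087 (SE 0.080, 95% interval -0.094 to 0.27, adjusted p = 0.65 in limma). miR-16-5p, the partner of miR-15a in the Dleu2 cluster, read 1.45, 1.18, 1.17 and 1.13 on the controls and 1.36, 1.43, 1.36 and 1.14 on the tacrolimus arrays. Control 1 was the highest of all 8 arrays, and tacrolimus 4 lay within the other 3 controls. The means of 1.23 ± 0.15 and 1.32 ± 0.13 (SD, n = 4 each) differed by 0.090 (SE 0.095, 95% interval -0.12 to 0.31, adjusted p = 0.66 in limma).

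miR-15b-5p, from the Smc4 cluster, had the widest spread of the 5. It read -0.49, -0.84, -1.05 and -1.05 on the controls and -0.89, -0.61, -0.80 and -0.99 on the tacrolimus arrays. The control arrays spanned the tacrolimus arrays at both ends. The means of -0.86 ± 0.27 and -0.82 ± 0.16 (SD, n = 4 each) differed by 0.039 (SE 0.137, 95% interval -0.27 to 0.35, adjusted p = 0.90 in limma). That value is the same as the median difference of all 194 tested miRNAs, 0.039. With scaling to the median it read -0.034, where all tested miRNAs had shifted down to a median of -0.029. The 95% intervals of miR-15a-5p, miR-15b-5p and miR-16-5p all include the size seen for miR-195a-5p. Whether the members differ in response was not tested, and these data do not show that they do.

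Of the 5 members 0 passed an adjusted p of 0.05 in limma, where 3.09% of the 194 tested miRNAs did, all of them higher. At an unadjusted p under 0.05 there were 2 of 5, both from the cluster on chromosome 11, where 10.8% of the tested miRNAs were higher at that limit. By unadjusted p miR-497a-5p ranked 15 and miR-195a-5p ranked 16 of 194, while miR-15a-5p, miR-16-5p and miR-15b-5p ranked 91, 108 and 168. All 5 differences were above 0, as were 59.3% of all tested, and the members' median was 0.090. In 0 of the 5 did every tacrolimus array lie above every control array, which held for 8.25% of the tested miRNAs. The members were chosen with these results known, so the counts describe the family and support nothing further.

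**Figure D2:**
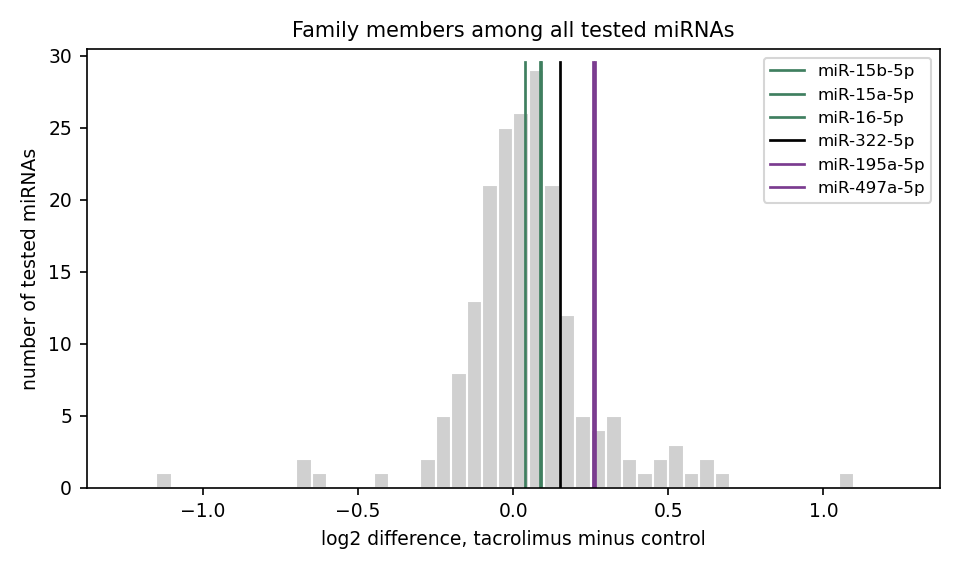
Histogram of the log2 difference, tacrolimus minus control, of the 194 tested miRNAs, with lines at the members and at miR-322-5p. The lines of miR-195a-5p and miR-497a-5p, both near 0.26, stand in the upper shoulder, 22nd and 20th from the highest, and those of miR-15a-5p, miR-15b-5p and miR-16-5p stand in the main body.

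Each member was read by 2 probes of different length, with 20 spots of each probe on every array, of which 14 to 20 were kept. The median coefficient of variation between spots of a probe ran from 2.9% (the brighter probe of miR-15a-5p) to 6.0% (the dimmer probe of miR-497a-5p). Both probes of a member gave a like difference. The dimmer probe differed by 0.26 for miR-195a-5p, by 0.33 for miR-497a-5p, by 0.073 for miR-15a-5p, by 0.090 for miR-15b-5p and by 0.090 for miR-16-5p. All 4 probes of miR-195a-5p and miR-497a-5p and 0 of the 6 probes of the other members had an unadjusted limma p under 0.05, where 10.6% of the 357 tested probes were higher at that limit. The lowest of these, 0.008 for the dimmer probe of miR-497a-5p, had an adjusted p of 0.16 over the 357 probes, of which 0 passed the threshold and 38 were higher at an unadjusted p under 0.05. Probes of a member share their target and their arrays and are not replicates.

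**Figure D3:**
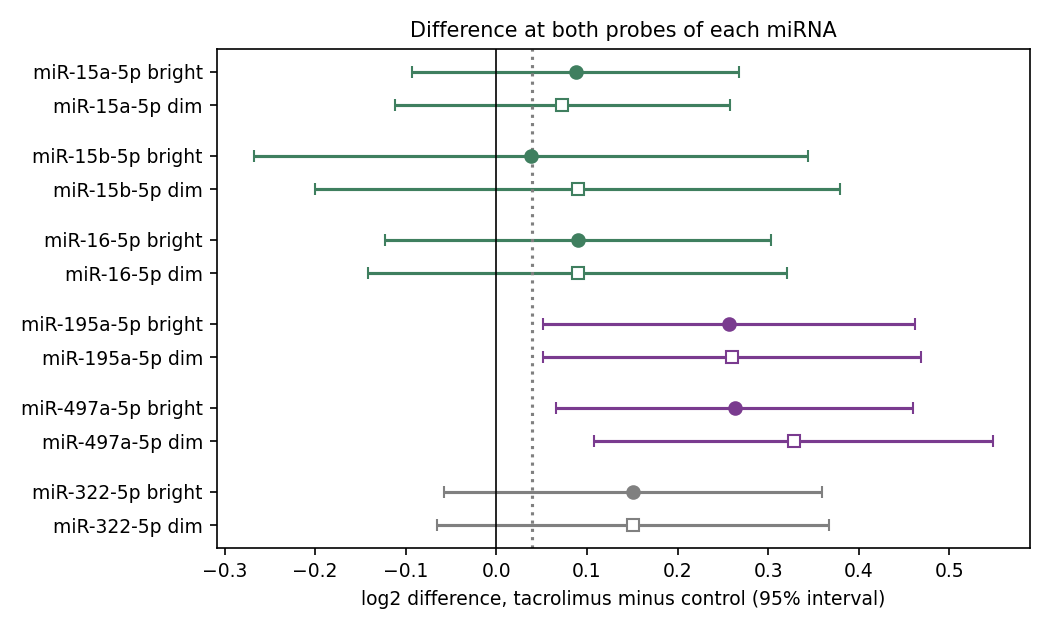
Log2 difference, tacrolimus minus control, with its 95% interval in limma, for the bright (filled) and dim (open) probe of each member and of miR-322-5p. The solid line is 0 and the dotted line is the median of all tested miRNAs (0.039); the 4 intervals of miR-195a-5p and miR-497a-5p lie above 0 and the 6 of the other members include it.

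The closest pair of probes shows how little separates miR-16-5p from miR-195a-5p on the array. The brighter probe of each is printed 5′ to 3′, with capitals for the bases that face a mismatch or a missing base in the other miRNA.
miR-195a-5p probe: gccaatatttCTgtgctgc
miR-16-5p probe: CgccaatatttACgtgct
The miR-195a-5p probe has 2 such bases against miR-16-5p, and the miR-16-5p probe has 3 against miR-195a-5p. The probes of miR-15a-5p, miR-15b-5p and miR-497a-5p each have 4 against their closest relative in the family. Signal shared between these probes was not measured, and the values of miR-195a-5p and miR-16-5p are uncertain as separate measurements. Their differences were 0.26 and 0.090. From array to array Pearson's r of miR-195a-5p was 0.985 with miR-497a-5p and 0.48 with miR-16-5p, as described next. Neither comparison measures how much signal the probes share.

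Over the 8 arrays miR-195a-5p and miR-497a-5p moved together, as did miR-15a-5p, miR-15b-5p and miR-16-5p, which come from the loci on chromosomes 14 and 3. Pearson's r was 0.985 between miR-195a-5p and miR-497a-5p and 0.965 between miR-15a-5p and miR-16-5p. It was 0.889 between miR-15a-5p and miR-15b-5p and 0.877 between miR-15b-5p and miR-16-5p. Between the pair from chromosome 11 and the other 3 members r ran from 0.248 (miR-15b-5p with miR-497a-5p) to 0.613 (miR-15a-5p with miR-195a-5p). With the group means taken out, miR-195a-5p and miR-497a-5p still gave 0.965 and miR-15a-5p and miR-16-5p gave 0.964. These values share the arrays and each array's scaling factor, and they are descriptions over 8 arrays with no test.

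Differences between members within an array cancel the scaling. miR-497a-5p minus miR-195a-5p was -0.33 ± 0.036 on the controls and -0.32 ± 0.032 on the tacrolimus arrays (SD, n = 4 each). miR-16-5p minus miR-15a-5p was 0.71 ± 0.048 and 0.71 ± 0.044. These pairs thus kept their distance within 0.05 (SD) from array to array in both groups, while miR-15b-5p minus miR-15a-5p was wider, at -1.38 ± 0.15 and -1.43 ± 0.095.

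The contrast of the clusters, the mean of miR-195a-5p and miR-497a-5p minus the mean of miR-15a-5p, miR-15b-5p and miR-16-5p, was -0.92, -0.84, -0.76 and -0.56 on control arrays 1 to 4. It was -0.46, -0.64, -0.78 and -0.45 on tacrolimus arrays 1 to 4. Tacrolimus 1 and 4 lay above every control, tacrolimus 3 lay among the controls, and control 4 lay among the tacrolimus arrays. The group means were -0.77 ± 0.16 and -0.58 ± 0.16 (SD, n = 4 each), a difference of 0.19, close to 1 SD of either group. With the dimmer probe of every member it was 0.21. It is a score over chosen members, so it has no p. It was 0.096 with quantile normalization and 0.093 without control 1 and tacrolimus 4, the arrays with the widest negative control signals of their groups, a choice made after the data were seen.

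The contrast ran against the level of erythrocyte miRNAs. Blood is left in a whole kidney, and red cells carry much miR-451a, made with miR-144 from 1 locus, and much miR-16. The mean of the 3 tested erythrocyte markers of 4 listed (miR-451a, miR-144-3p and miR-486a-5p) was -1.49, -1.89, -2.15 and -2.96 on control arrays 1 to 4 and -2.79, -2.70, -2.61 and -3.01 on tacrolimus arrays 1 to 4. Controls 1 to 3 stood above every tacrolimus array, and control 4 stood among them. miR-486a-5p, which weighs equally in this mean, was dim. It was detected on 2 control and 3 tacrolimus arrays and lay at the floor of -5.96 on tacrolimus 4. The summed scaled signal of these markers ran from 2.09 to 5.81 on the controls and from 1.88 to 2.50 on the tacrolimus arrays. That sum is mostly miR-451a, whose control mean was 1.81 against -3.18 for miR-144-3p and -5.00 for miR-486a-5p. miR-451a itself read 2.48, 2.09, 1.66 and 1.01 against 1.22, 1.22, 1.26 and 0.84, a difference of -0.67 (SE 0.272, adjusted p = 0.27 in limma). In whole-kidney RNA fewer cells of a type and less RNA per cell cannot be told apart.

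Over the 8 arrays the contrast gave Pearson's r of -0.89 and Spearman's rho of -0.95 with the erythrocyte mean, r of -0.84 with the group means taken out, and r of -0.79 without the 2 arrays farthest from the median of the markers. Other markers moved with it as well: with the mean of the tubule markers r was 0.80 and rho 0.86 (r of 0.69 with the group means taken out), and with the mesenchyme markers r was 0.58 (0.18 with the group means taken out). With leukocyte and endothelial markers r was 0.15 and 0.04, and -0.47 and -0.02 with the group means taken out. All points share the array's scaling in the marker mean, and no p is given. Within the family, r with the erythrocyte mean was 0.53 for miR-15b-5p, 0.29 for miR-16-5p and 0.18 for miR-15a-5p, and -0.54 for miR-195a-5p and -0.59 for miR-497a-5p. With the group means taken out it was 0.78, 0.72, 0.67, -0.11 and -0.18 in that order. Without control 1 and control 2, the farthest arrays, r was -0.03, 0.1, -0.19, -0.66 and -0.62 in the same order.

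With miR-451a as a covariate in the limma fit, an alternative added after the data were seen, the members stood at like differences. miR-15a-5p differed by 0.20 (SE 0.094), miR-15b-5p by 0.30 (SE 0.123) and miR-16-5p by 0.24 (SE 0.102). miR-195a-5p differed by 0.25 (SE 0.125) and miR-497a-5p by 0.25 (SE 0.120). The contrast was 0.0070. On these same arrays it already ran against the erythrocyte mean (r of -0.89), so that value is no separate check. The values of miR-195a-5p and miR-497a-5p were thus nearly those without the covariate, and those of the other 3 members were higher. Of the 5 members 0 passed the threshold in that fit, with adjusted p-values of 0.37 or more. miR-451a differs between the groups itself (1.81 ± 0.63 on the controls and 1.14 ± 0.20 on the tacrolimus arrays, SD, n = 4 each), so what the fit assigns to it and to treatment is only partly separable with 8 arrays.

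**Figure D4:**
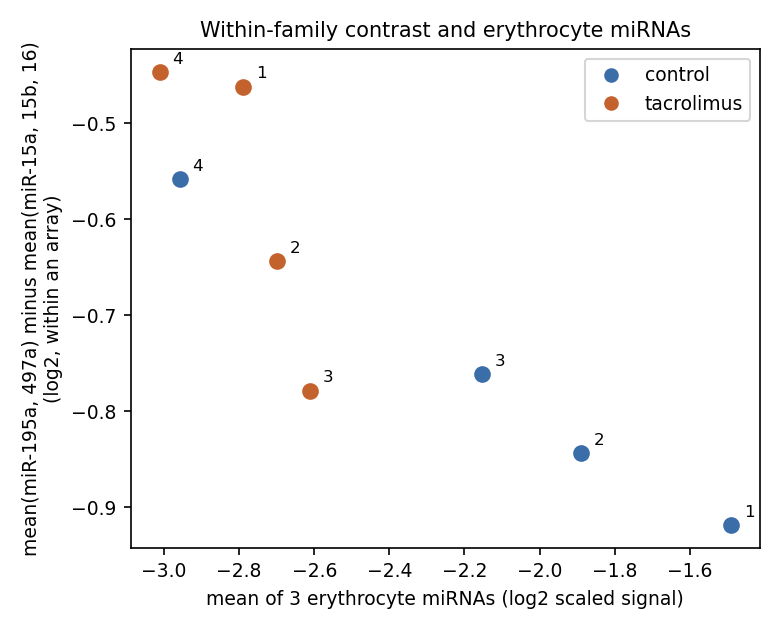
Within-array contrast of the clusters (vertical axis, log2) against the mean scaled log2 signal of 3 erythrocyte miRNAs (horizontal axis) on the 8 arrays, numbered by replicate. The contrast falls from -0.46 and -0.45 on tacrolimus 1 and 4 to -0.92 on control 1 as the erythrocyte mean increases, and control 4 lies with the tacrolimus arrays.

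Leukocyte miRNAs moved with the family too. Of the 5 listed markers 5 were tested and 0 passed the threshold (3 at an unadjusted p under 0.05, where 15.5% of all tested were). All 5 differences were above 0, as were 59.3% of all tested, and their median was 0.55, where that of all tested was 0.039. Their summed scaled signal ran from 0.43 to 0.69 on the controls and from 0.70 to 0.91 on the tacrolimus arrays. The mean of the leukocyte markers gave r of 0.88 with miR-15a-5p, 0.66 with miR-15b-5p, 0.80 with miR-16-5p, 0.78 with miR-195a-5p and 0.76 with miR-497a-5p. With the group means taken out these were 0.92, 0.86, 0.85, 0.51 and 0.44. Without the 2 arrays farthest from the median of these markers they were 0.76, 0.29, 0.74, 0.82 and 0.79. The mean includes the dim miR-150-5p, detected on 3 control and 3 tacrolimus arrays. Control 1, the control array highest in miR-15a-5p, miR-15b-5p and miR-16-5p, was also the control array highest in erythrocyte and in leukocyte markers. Among the controls it was highest in endothelial markers and in miR-195a-5p as well, but not in mesenchyme or tubule markers. The part of leukocyte miRNAs in the members' differences was not tested.

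Markers of the kidney's own cells were checked as well. Of 6 smooth muscle and mesenchyme miRNAs 5 were tested and 3 passed the threshold, where 3.09% of all tested miRNAs did. These 3 rose, miR-214-3p by 0.69, miR-199a-3p by 0.49 and miR-199a-5p by 0.47 (limma adjusted p = 0.048 for all 3). The smooth muscle miRNAs miR-143-3p and miR-145a-5p, the other 2 tested, differed by 0.030 and -0.075 and did not pass. The calls lie close to the threshold: of all tested miRNAs 0 passed when probes were averaged, with the total gene signal, and without control 1, control 2, tacrolimus 1 or tacrolimus 4. The mean of the 5 gave r of 0.78 with miR-195a-5p and 0.79 with miR-497a-5p over the 8 arrays. With the group means taken out r was 0.34 and 0.30. Of 7 tubule markers 6 were tested, with 0 past the threshold and a median difference of 0.11. At an unadjusted limma p under 0.05 there was 1, where 15.5% of all tested miRNAs were. The mean of the tubule markers gave r of 0.85 and 0.79 with the pair, and 0.67 and 0.51 with the group means taken out. Both endothelial markers were tested, with differences of -0.033 and 0.063, and gave r of 0.27 or less with the pair. The summed scaled signal on controls and tacrolimus arrays ran from 1.00 to 1.09 and from 1.17 to 1.48 for mesenchyme, from 8.81 to 8.96 and from 8.93 to 9.78 for tubule, and from 3.44 to 4.09 and from 3.56 to 3.79 for endothelium. Of 4 muscle and liver miRNAs 0 were tested. The muscle miRNA miR-1a-3p was detected on 2 tacrolimus and 0 control arrays, and miR-122-5p of liver on 0 arrays. The listed tubule marker miR-192-5p was detected on all 8. The part of these cells in the members' differences was not tested.

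The other carriers of the seed and the opposite arms add little at this depth. RefSeq holds 10 mature mouse names with the seed, of which 5 are the members, and of the other 5 only miR-322-5p has probes on the array. miR-322-5p, made with miR-503 from a cluster on chromosome X, read -1.35, -1.69, -1.53 and -1.57 on the controls and -1.46, -1.23, -1.51 and -1.34 on the tacrolimus arrays. The groups overlapped, and the difference of 0.15 (SE 0.093, adjusted p = 0.47 in limma) lay between those of the clusters, at both of its probes (0.15 and 0.15). miR-503-5p, whose seed differs at its last base, was dim, with 3 arrays of either group above background, and differed by 0.058 (adjusted p = 0.80). miR-103-3p and miR-107-3p, whose seed is shifted by 1 base, differed by -0.017 and -0.11, and 0 of the 4 tested relatives passed the threshold (0 at an unadjusted p under 0.05). Of the 6 opposite arms of the members 0 were tested. miR-15b-3p was detected on 1 control array only, and miR-15a-3p, miR-16-1-3p, miR-16-2-3p, miR-195a-3p and miR-497a-3p were detected on 0 of the 8 arrays. The arms therefore give no second reading of the precursors.

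By the highest Pearson r over the 8 arrays, the miRNAs outside the family most like miR-15a-5p were miR-211-3p (0.941), miR-2861 (0.928) and miR-130a-3p (0.920). For miR-15b-5p they were miR-3102-5p (0.937), miR-211-3p (0.929) and miR-2861 (0.929), and for miR-16-5p miR-340-5p (0.919), miR-211-3p (0.904) and miR-2861 (0.902). Of these miR-2861 and miR-211-3p were dim (control means of -4.50 and -4.49). miR-2861 was detected on 3 control and 3 tacrolimus arrays, and miR-211-3p on 4 control and 3 tacrolimus arrays. The pair from chromosome 11 had other neighbours. For miR-195a-5p they were miR-362-3p (0.908), miR-19b-3p (0.883) and miR-20a-5p (0.870). For miR-497a-5p they were miR-362-3p (0.911), miR-19b-3p (0.860) and miR-199a-3p (0.839). These were picked as the highest of 189 candidates over 8 points and carry no test.

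Other miRNAs known to act on the cell cycle were set beside the family. Of 20 listed miRNAs that restrain proliferation 19 were tested and 0 passed the threshold, with 3 at an unadjusted p under 0.05 (differences of 0.26 for let-7i-5p, 0.31 for miR-34b-5p and 0.18 for miR-100-5p), where 15.5% of all tested were. Of the 19 differences 13 were above 0, near the 59.3% of all tested, and the median was 0.036, near that of all tested (0.039). Of 13 listed miRNAs that promote proliferation 13 were tested and 0 passed the threshold, with 1 at an unadjusted p under 0.05, miR-21a-5p (difference 0.45, adjusted p = 0.10). Of these 13 differences 11 were above 0, where 59.3% of all tested were, and the median was 0.076.

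Under the 23 alternatives run, 0 of the 5 members passed the threshold. miR-195a-5p ran from 0.14 to 0.41 and miR-497a-5p from 0.16 to 0.42, and both were above 0 throughout. The highest value came with no scaling, where the 194 tested miRNAs had a median of 0.19 and miR-195a-5p stood 0.22 above that. The scalings by 1 factor per array, the filter, the floor, the variance model and the block leave the order of the members as it was. Of the alternatives that can change it, both members of the pair stood above the other 3 with normexp background, quantile normalization, averaged probes, the total gene signal and each array left out, but not in the fit with miR-451a as covariate.

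**Figure D5:**
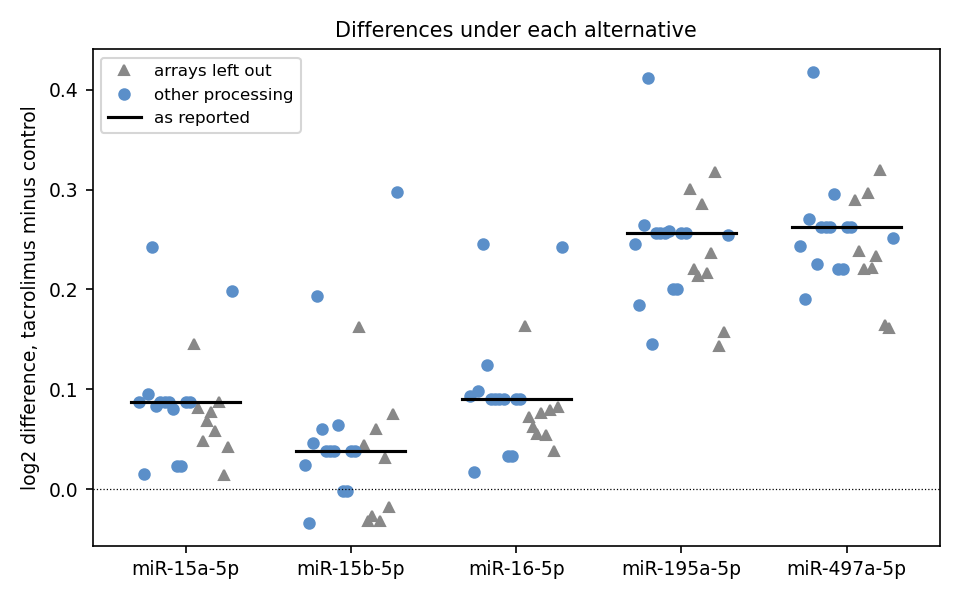
Log2 difference, tacrolimus minus control, of each member under each alternative. The black line is the reported value, triangles leave out arrays and circles change another step; miR-195a-5p and miR-497a-5p stay above 0 and range from 0.14 to 0.42, while miR-15b-5p falls on both sides of 0.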

How the data were processed

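The authors' deposited array files hold linear spot intensity from Feature Extraction 10.7.3.1, with background subtracted, per the file headers. The authors' deposited value table equals that software's total gene signal (100% of cells, tolerance 1e-06) and is not scaled between arrays. limma is named, without version, by the submitters' processing notes. The labels cite an mRNA labelling kit and do not describe another for miRNA. Other columns, such as flags and probe names (unit other in the deposited files), only chose spots.

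With R 4.3.3 and limma 3.58.1, spots flagged as outliers were dropped, spots were averaged per probe, and signals were divided by the array's 75th percentile over 252 probes, those detected on every array (at least 0.5 of kept spots well above background). A floor of -5.96 was set and log2 taken. The brightest probe stood for a miRNA, tested if detected on at least 4 arrays (194 of 1023). Groups were compared with lmFit and eBayes, two-sided, with Benjamini-Hochberg adjustment over all 194 and a threshold of 0.05. Intervals are 95%. The arrays detected 147 (tacrolimus 4) to 220 miRNAs and correlated at 0.987 to 0.997, no spot was saturated (0), and the negative control SD was 20.3 on tacrolimus 4, 10.5 on control 1, 9.69 on control 3 and 4.45 to 5.46 elsewhere. The number of arrays limits the precision. Members and lists were chosen with earlier results of these data known. The text names the members, same-seed miRNAs, opposite arms, the 3 most correlated miRNAs of each member and up to 3 of each list. RefSeq names matched 830 of the 1023 array names. Alternatives changed background, scaling, filter, floor, probe summary, variance model and replicates. Only the limma fit was tested on simulated data, drawn around the processed signals, and the steps before it were not simulated.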

Additional observations from a re-analysis of the deposited data

Results flagged for a closer look

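Of 38 sets of 4 arrays examined, for the members and the miRNAs named beside them, 3 held an array that stood apart from the other 3 by Dixon's criterion at its 95% critical value, where chance gives 1.9. miR-16-5p on control 1 stood 0.29 above the mean of the other controls. miR-103-3p on tacrolimus 1 deviated by -0.15 from the mean of the other tacrolimus arrays. miR-340-5p, the miRNA outside the family with the highest correlation with miR-16-5p, deviated by -0.25 on tacrolimus 4, measured the same way.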

How the results depend on the processing

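miR-15a-5p, miR-16-5p, miR-195a-5p and miR-497a-5p kept their sign and their side of the threshold in all 23 alternatives. miR-15b-5p changed sign in 7: it was -0.034 with median scaling, -0.0017 with the total gene signal and with the authors' value table, and from -0.032 to 0.16 with 1 array left out (below 0 without control 3, control 4, tacrolimus 2 or tacrolimus 4). With median scaling it stood -0.005 from the median of all tested miRNAs, so that change of sign is a shift shared by all. With the total gene signal miR-15b-5p stood 0.0059 above that median, and without tacrolimus 4 it stood 0.0467 above it. Without control 3, control 4 and tacrolimus 2 it stood at -0.0847, -0.0574 and -0.0666 from it, in that order. The cause of these changes of sign was not tested. The authors' value table holds the same values as the total gene signal and is no separate check. The contrast of the clusters was 0.0070 with miR-451a as a covariate and 0.14 to 0.26 with 1 array left out. The count of all tested miRNAs past the threshold, 6 as reported, was 1 with normexp background, 3 with miR-451a as a covariate and 0 to 7 with 1 array left out. It was 0 when arrays were not scaled or were scaled over all probes, when dim miRNAs were kept, when the floor was raised 2 times, when probes were averaged, and with total gene signal or the authors' value table. It was also 0 with eBayes trend and robust and without control 1 and tacrolimus 4 together. With the replicate number, which equals the slide column, as a block, the members' differences were the same and that count was 0. Same-numbered arrays deviated together weakly (r of 0.109, 0.14, 0.112 and 0.095), and 2 of 8 arrays correlated best with their own number, so the numbers were not taken to pair samples. Signal over background limits the opposite arms and miR-503-5p.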
